A study of Homo sapiens with 6 samples.

Results

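The ERBB receptors ERBB2, ERBB3 and EGFR and the EGF-family ligands AREG, EREG, HBEGF, TGFA and NRG1 were followed as a named set of 8 genes, 3 receptors and 5 ligands, among the 60498 genes of the count table. The members were listed by name, and all 8 were among the 15126 genes that averaged 10 or more counts per library. RNA was sequenced from SKOV3, an established human ovarian cancer cell line, in 3 lines that differ in STING1, the receptor of cyclic dinucleotides that starts the type I interferon response. The parent line carries 1 WT and 1 HAQ allele (WT/HAQ), HAQ being a haplotype of linked amino acid changes. The WT/- and HAQ/- lines each keep only the allele they are named for, and each is a single clone, made with Cas9 and a pair of guides that flank the gene, puromycin selection and limiting dilution. Each line gave a control library and a library of cells given 2'3'-cGAMP, the ligand of STING1, at 10 μg/mL for 30 min in a digitonin permeabilization buffer, then 4 h in fresh medium. The handling of the control cells is not given in the sources used here, so cGAMP and the permeabilization cannot be told apart if controls were not permeabilized. With 1 library per line and treatment, no condition has a replicate, and the STING1 genotype of a line cannot be told apart from its clone.

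EGFR, ERBB2 and ERBB3 belong to a family of receptor tyrosine kinases that work as pairs. EGFR and ERBB4 bind ligand and signal, ERBB2 binds no known ligand and acts as the preferred partner of the others, and ERBB3 binds neuregulins but has a weak kinase and signals through its partner. AREG, EREG, HBEGF, TGFA and BTC are made as membrane-bound precursors and bind EGFR once metalloproteases such as ADAM17 have released them, with HBEGF, EREG and BTC binding ERBB4 as well, whereas NRG1 binds ERBB3 and ERBB4. Active receptors signal through RAS, RAF and ERK and through PI3K and AKT, and SKOV3 is known for amplified ERBB2.

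The libraries held 12444822 to 17608467 counts and 21193 to 21992 detected genes, and the cGAMP libraries of WT/- and HAQ/- were the smallest. STING1 had 669.1, 353 and 213 normalized counts in the WT/HAQ, WT/- and HAQ/- control libraries, and ISG15, an interferon-stimulated gene, had 139.7 normalized counts without and 18883 with cGAMP for WT/HAQ, 350.0 and 16952 for WT/-, and 139 and 4940 for HAQ/-. All 7 epithelial ovarian markers had counts in every library, with KRT8 between 9067 and 14629 normalized counts and PAX8 between 1966 and 9391. The lowest of them, MUC16, stood between 0.872 and 68.4. The 5 leukocyte markers summed to at most 6.68 normalized counts in a library and the 3 endothelial markers to at most 39.2. The 5 fibroblast markers summed to 1337 to 2210.5 because COL1A1, COL1A2, DCN and LUM were detected, while PDGFRB, which marks mesenchymal cells, stayed at or under 4.01. The markers that differed between the lines are given beside AREG and EREG.

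Levels of different genes are given as normalized counts per kilobase of exon. ERBB2 was by far the highest of the 8 genes in the control cells of every line. It stood at 6563, 5010 and 6709 per kb in WT/HAQ, WT/- and HAQ/-, at rank 46, 74 and 37 of 14995 genes with an annotated length, and was 104.9, 78.8 and 108.8 times the median gene. ERBB2 reads made up 0.435%, 0.325% and 0.466% of these control libraries. EGFR followed at 425, 561 and 372 per kb, so that ERBB2 exceeded EGFR 15.5-fold, 8.93-fold and 18.0-fold. ERBB3, a partner through which ERBB2 is coupled to neuregulins, was the lowest member in every line, at 4.98, 4.22 and 3.87 per kb. ERBB4, which also binds NRG1 but is outside the set, had 30.3, 10.0 and 29.8 per kb.

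**Figure D1:**
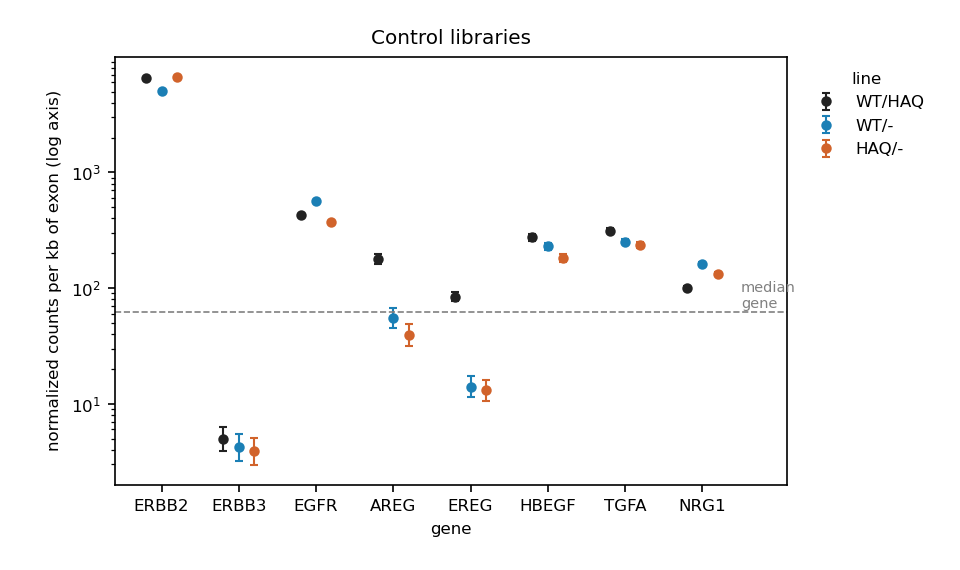
Control level of each gene in the 3 lines, in normalized counts per kilobase of exon on a log axis; points are single libraries, bars are 95% counting intervals, and the dashed line is the median gene of the WT/HAQ control library (62.6 per kb). ERBB2 lies far above the other members and ERBB3 below them in all 3 lines, while AREG and EREG are separated by line.

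Among the ligands, TGFA was the highest per kilobase, with 314, 252 and 236 per kb in the WT/HAQ, WT/- and HAQ/- controls. HBEGF followed at 274, 230 and 182 per kb, and the counting intervals of TGFA and HBEGF overlapped in WT/-. AREG ranked above NRG1 in WT/HAQ, at 179 against 101 per kb. In the clones this order was turned, with 55.1 against 163 per kb in WT/- and 39.3 against 133 in HAQ/-. EREG was the lowest ligand throughout, at 84.3, 14.0 and 13.1 per kb. Apart from TGFA and HBEGF in WT/-, neighbours in this order were separated beyond their 95% counting intervals in each control library, which leave out the spread between cultures. With the longest coding transcript as the length, ERBB2 stood at 14136 and EGFR at 683 per kb in WT/HAQ. The folds between genes thus depend on the length used, while the order of the 8 genes was as above in each line.

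AREG and EREG, genes for ligands that bind EGFR with low affinity, separated the parent from both clones. EREG had 481.7 normalized counts in the control and 372 in the cGAMP library of WT/HAQ, against 80.3 and 52.1 for WT/- and 75.0 and 50.4 for HAQ/-. Each library of the parent lay above all 4 libraries of the clones. In edgeR's quasi-likelihood fit with line and treatment as terms, EREG was lower by a log2 difference of -2.69 ± 0.14 (SE) in WT/- (adjusted p = 0.0029) and -2.77 ± 0.14 in HAQ/- (adjusted p = 0.0089). AREG had 293 and 115 normalized counts for WT/HAQ, 90.5 and 37.4 for WT/-, and 64.6 and 44.9 for HAQ/-. The parent values again lay above those of the clones. The counting intervals of WT/HAQ with cGAMP (96.3 to 137) and of the WT/- control (74.2 to 110) overlapped, however. The share of all genes with such a split of parent and clones was not determined. The log2 difference of AREG from WT/HAQ was -1.65 ± 0.25 in WT/- (adjusted p = 0.028) and -1.82 ± 0.25 in HAQ/- (adjusted p = 0.052, which does not pass). Some marker genes showed the same split of parent and clones. Of the 7 epithelial markers, KRT19 (5629, 364 and 414 normalized counts in the WT/HAQ, WT/- and HAQ/- controls), EPCAM (736, 425 and 420.5) and MUC16 (29.2, 6.53 and 0.872) were lower in each clone than in WT/HAQ by edgeR, and of 4 analysed fibroblast markers COL1A2 (205, 524 and 637) was higher, beside 8.81% of all genes called in WT/- and 1.22% in HAQ/-. The other 4 epithelial markers did not pass, among them CDH1 (230, 223 and 210.2 in the controls) and PAX8, which had 6751, 9391 and 4613 in the controls and 1966, 4970 and 3276 with cGAMP. Their part in the results for AREG and EREG was not tested. The remaining ligands did not pass in any contrast of lines. NRG1 had the largest of these differences, 1.51 ± 0.52 on the log2 scale in HAQ/- against WT/HAQ (adjusted p = 0.22), with the widest standard error of the 8 genes. This difference averages over treatment, and the log2 ratio of HAQ/- over WT/HAQ for NRG1 was 0.39 in the controls and 2.66 with cGAMP.

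In all, 3 of 8 members (EREG, AREG and ERBB2) differed between WT/- and WT/HAQ, against 8.81% of all genes tested, 1 of 8 (EREG) between HAQ/- and WT/HAQ against 1.22%, and 1 of 8 (ERBB2) between WT/- and HAQ/- against 19.0%. The tests use the control and cGAMP libraries of a line as its spread, with 2 residual degrees of freedom, so p-values measure the spread between these 6 libraries and not between cultures. Without either library of WT/-, or with the WT/- line left out, 0 genes of the whole table passed in the contrasts that could still be made, with 1 to 3 members at an unadjusted p under 0.05, beside 13.7% to 21.6% of all genes. Without HAQ/-, or either of its libraries, 6 members differed between WT/- and WT/HAQ, the others being EGFR and NRG1 (higher in WT/-) and TGFA (lower), while the share of all genes called was also larger, at 17.1% without the line, 17.3% without its control and 2586 of 15183 genes without its cGAMP library. Without either WT/HAQ library EREG alone of the members passed in that contrast, beside 1.48% (without the cGAMP library) and 2.26% (without the control) of all genes. Between HAQ/- and WT/HAQ, AREG and EREG passed without the HAQ/- cGAMP library, beside 1.75% of all genes, and EGFR and NRG1 passed as well without the HAQ/- control library, beside 8.54%. Between WT/- and HAQ/-, EGFR and ERBB2 passed without the HAQ/- cGAMP library, beside 13.8% of all genes, and HBEGF, NRG1, TGFA and ERBB2 without the HAQ/- control library, beside 19.9%.

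AREG and EREG are neighbours on chromosome 4 (GRCh38, GENCODE release 44). EREG lies on the plus strand from 74365145 to 74388749 and AREG 56.4 kb further on, from 74445136 to 74455005, also on the plus strand. BTC, the gene for betacellulin, lies 289.8 kb beyond AREG on the minus strand, from 74744759 to 74794523. The chemokine genes CXCL8, CXCL1, CXCL2, CXCL3, CXCL5 and CXCL6 lie on the other side of EREG. Some of them were ordered differently from AREG and EREG between the lines. CXCL8, for example, had 20328, 46002 and 3138 normalized counts in the WT/HAQ, WT/- and HAQ/- controls. Of the 9 analysed genes of the region, 4 (CXCL8, CXCL1, CXCL2 and CXCL3) were higher in WT/- than their WT/HAQ level by edgeR and 0 were lower, beside 8.81% of all genes in either direction, with log2 differences from 1.81 (CXCL1, adjusted p = 0.038) to 2.34 (CXCL3, adjusted p = 0.027). CXCL5 had 17.7, 21.5 and 9.60 normalized counts in the controls and did not pass (0.53, adjusted p = 0.56), and CXCL6 had at most 1 count in a library. BTC had 127, 114 and 113 normalized counts in the controls and passed in no contrast of lines. The 250 bases before the RefSeq start sites of these 3 ligand genes (GRCh38.p14) are shown because the genes share a region but differed in how they varied. Capitals mark the CRE motif (TGACGTCA) and the TATA box motif (TATAAA), searched on both strands, and the window is chr4:74444886-74445135 on the plus strand for AREG, chr4:74364895-74365144 on the plus strand for EREG and chr4:74794524-74794773 on the minus strand for BTC.
AREG: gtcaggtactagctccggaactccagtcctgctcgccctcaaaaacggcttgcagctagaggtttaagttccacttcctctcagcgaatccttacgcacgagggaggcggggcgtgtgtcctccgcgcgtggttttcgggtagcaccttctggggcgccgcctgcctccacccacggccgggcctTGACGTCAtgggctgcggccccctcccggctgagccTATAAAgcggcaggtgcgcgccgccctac
EREG: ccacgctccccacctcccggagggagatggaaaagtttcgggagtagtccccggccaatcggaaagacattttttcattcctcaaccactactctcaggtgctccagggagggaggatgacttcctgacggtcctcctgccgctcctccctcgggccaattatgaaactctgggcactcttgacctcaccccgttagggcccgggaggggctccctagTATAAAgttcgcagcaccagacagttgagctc
BTC: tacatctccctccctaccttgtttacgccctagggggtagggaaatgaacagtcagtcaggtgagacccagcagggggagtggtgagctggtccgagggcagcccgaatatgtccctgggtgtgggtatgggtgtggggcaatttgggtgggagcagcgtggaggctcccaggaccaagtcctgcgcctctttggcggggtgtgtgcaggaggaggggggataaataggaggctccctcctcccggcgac
The AREG window holds the CRE from -65 to -58 and the TATA box from -29 to -24, and the EREG window a TATA box from -32 to -27, counted back from the start. A CRE of these letters is in 1.65% and a TATA box in 10.7% of 35114 RefSeq windows of the same length, and neither is in the BTC window. A match is a description of the letters only.

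ERBB2 itself was lower in WT/- than in the other lines. It had 67741 normalized counts in the control and 64517 in the cGAMP library of WT/HAQ, 51708 and 46462 for WT/-, and 69247 and 67661 for HAQ/-. The WT/- libraries lay below the other 4, and the share of all genes with such a split was not determined. The log2 difference was -0.43 ± 0.07 from WT/HAQ (adjusted p = 0.030) and -0.48 ± 0.07 from HAQ/- (adjusted p = 0.014), while that of HAQ/- was 0.05 ± 0.07 from WT/HAQ (adjusted p = 0.73). ERBB2 lies on chromosome 17 from 39687914 to 39730426 on the plus strand, and the genes beside it were examined for the same pattern. Of 14 analysed neighbours out of 17, 3 were lower and 0 higher in WT/- than in WT/HAQ, where 8.81% of all genes differed. PPP1R1B, which encodes the phosphatase inhibitor DARPP-32 and lies 51.3 kb away, had 11615 normalized counts in the WT/HAQ control, 2374 in WT/- and 9137 in HAQ/- (log2 difference of WT/- from WT/HAQ -2.25, adjusted p = 0.0023). STARD3, a sterol-binding protein gene, had 5772, 4340 and 5633 (-0.39, adjusted p = 0.048), and MIEN1, a gene co-amplified with ERBB2, had 17451, 12040 and 17379 (-0.53, adjusted p = 0.022). PGAP3, of GPI-anchor remodelling, had 2245, 1765 and 2311 and missed the threshold against WT/HAQ (-0.34, adjusted p = 0.066), but was lower in WT/- than in HAQ/- (-0.33, adjusted p = 0.049). Against HAQ/-, 5 of 14 neighbours were lower and 1 was higher, beside 19.0% of all genes in either direction, and GSDMB was the other lower gene and GRB7 the higher one.

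Several genes of the region passed in no contrast of lines. CDK12 had 2973, 3297 and 2735 normalized counts in the WT/HAQ, WT/- and HAQ/- controls, MED1 had 2478, 2776 and 2692, FBXL20 had 476, 521 and 478, and on the other side ORMDL3 had 1433, 1613 and 1655 and PSMD3 had 3855, 3664 and 3980. None of these 5 passed, although PSMD3 had the same order of lines as ERBB2, with a log2 ratio of WT/- over WT/HAQ of -0.07 (-0.14 to -0.01) in the controls. GRB7, an adaptor gene 7.5 kb from ERBB2 that was higher in WT/- than in HAQ/-, had 795, 855 and 569, and GSDMB 105, 101 and 214. With cGAMP, the log2 ratio of WT/- over WT/HAQ was -0.35 (-0.54 to -0.16) for FBXL20 and -0.56 (-0.93 to -0.19) for GSDMB. TCAP, a low gene between STARD3 and PGAP3, had 83.1, 55.1 and 108, with a log2 ratio of WT/- over WT/HAQ of -0.59 (-1.06 to -0.13) in the controls and -0.85 (-1.44 to -0.26) with cGAMP, and missed the threshold in edgeR (-0.72, adjusted p = 0.13). The low genes PNMT (21.2, 24.3 and 14.8), NEUROD2 (15.9, 16.8 and 14.0) and IKZF3 (7.07, 3.73 and 12.2) give little to compare, GSDMA had at most 0.884, and ZPBP2 was at 0 in all libraries. Exons of ERBB2 overlap those of MIEN1 and PGAP3, which lie on the opposite strand, and whether counting used strand is not stated, so reads in the overlap cannot be told apart. PPP1R1B and STARD3 do not overlap ERBB2. Gene copy number was not measured in these libraries.

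**Figure D2:**
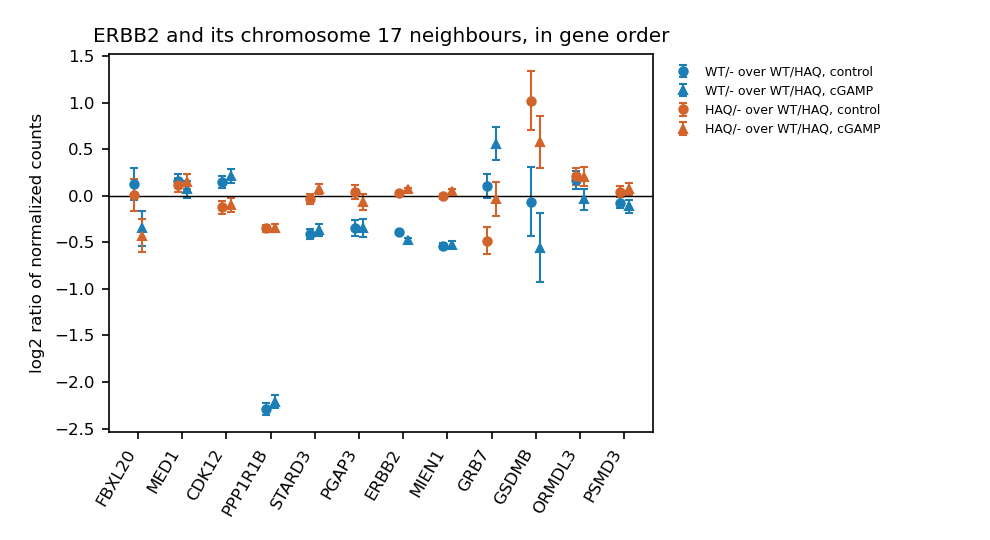
Log2 ratio of normalized counts of each clone over WT/HAQ for ERBB2 and 11 neighbouring genes in order along chromosome 17, for genes with at least 100 normalized counts in the WT/HAQ control; circles are control and triangles cGAMP libraries, with 95% counting intervals. The stretch from PPP1R1B to MIEN1 lies below 0 in WT/- in both treatments, while GRB7 does not, and CDK12 and MED1 on one side and PSMD3 on the other lie closer to 0. With cGAMP, FBXL20 (-0.35, -0.54 to -0.16) and GSDMB (-0.56, -0.93 to -0.19) also lie below 0 in WT/-, while their control intervals include 0.

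Fold changes with cGAMP were taken within each line. The test of a difference between lines, which no member passed with the minimum mean of 10 counts, follows them. At a threshold of 1.5-fold, cGAMP over control of the same line, 5 of 8 members were lowered in WT/HAQ (EGFR, AREG, HBEGF, TGFA and NRG1), against 12.3% of all genes analysed, and 6 of 8 in WT/- (the same 5 and EREG), against 8.77%. In HAQ/- 0 of 8 were lowered, against 5.76%. Members raised at least 1.5-fold numbered 0 in WT/HAQ and 0 in WT/-, where 12.8% and 11.9% of all genes were raised, and 1 in HAQ/- (ERBB3), where 6.75% were. The median log2 fold change of the members was -0.85, -0.80 and -0.18 in WT/HAQ, WT/- and HAQ/-, beside -0.01, -0.00 and -0.01 over all genes analysed. These folds compare 1 library with another, with 95% counting intervals and no test. PAX8, the ovarian lineage marker, had log2 fold changes of -1.78, -0.92 and -0.49 in the same lines (log2 difference over the lines -1.06, adjusted p = 0.082 by edgeR). The 7 epithelial ovarian markers together summed to 33720 normalized counts without and 22820 with cGAMP for WT/HAQ, 28706 and 21419 for WT/-, and 19248 and 17211 for HAQ/-. Of these markers edgeR called 0 with cGAMP (3 at an unadjusted p under 0.05, 1 by DESeq2). Of all genes, edgeR called 0.959% lower and 2.27% higher, 13.6% were lower at an unadjusted p under 0.05, and DESeq2 called 3.85% lower. The part of the markers in the results for the members was not tested.

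NRG1, the ligand of ERBB3 and ERBB4, had the largest fold change of the set in both lines with a WT allele. The control and cGAMP libraries had 2158 and 382 normalized counts for WT/HAQ, 3483 and 1253 for WT/-, and 2833 and 2419 for HAQ/-. The log2 fold change was -2.50 (-2.65 to -2.35), -1.48 (-1.58 to -1.37) and -0.23 (-0.31 to -0.15), and the 3 intervals did not overlap. HBEGF, the heparin-binding ligand, had 820.2 and 389.7 normalized counts for WT/HAQ, 687 and 354 for WT/-, and 544 and 549.5 for HAQ/-. Its log2 fold changes were -1.07 (-1.24 to -0.91), -0.96 (-1.16 to -0.75) and 0.01 (-0.16 to 0.18). In WT/HAQ and WT/- HBEGF was thus below its control, by intervals that overlapped, and HAQ/- stood within counting error of its control. TGFA had 1545 and 903 for WT/HAQ, 1240.3 and 678 for WT/-, and 1161 and 1000.5 for HAQ/-, with log2 fold changes of -0.77 (-0.89 to -0.66), -0.87 (-1.02 to -0.72) and -0.21 (-0.34 to -0.09). For TGFA all 3 intervals lay below 0.

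EGFR, the receptor of AREG, EREG, HBEGF and TGFA, had 6768 and 3558 normalized counts for WT/HAQ, 8945 and 5372 for WT/-, and 5935 and 5400 for HAQ/-. The log2 fold change was -0.93 (-0.98 to -0.87), -0.74 (-0.79 to -0.68) and -0.14 (-0.19 to -0.08). After cGAMP, the EGFR levels of WT/- and HAQ/- differed by a log2 ratio of 0.01 (-0.05 to 0.07), HAQ/- over WT/-, although the control of WT/- was 1.51-fold higher. AREG had log2 fold changes of -1.35 (-1.65 to -1.05), -1.28 (-1.88 to -0.67) and -0.52 (-1.07 to 0.02), and EREG of -0.37 (-0.56 to -0.19), -0.62 (-1.17 to -0.08) and -0.58 (-1.09 to -0.06). EREG thus had overlapping intervals in the 3 lines. EREG lay on either side of the 1.5-fold threshold by small margins, at 1.54-fold in WT/- and 1.49-fold in HAQ/-. ERBB2 stood close to its control, with -0.07 (-0.09 to -0.06), -0.15 (-0.17 to -0.13) and -0.03 (-0.05 to -0.02). ERBB3 rested on 46 to 66 counts a library, and its log2 fold change of 0.65 (0.13 to 1.17) in HAQ/- was 0.31 (-0.25 to 0.88) in WT/- and -0.27 (-0.79 to 0.26) in WT/HAQ.

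**Figure D3:**
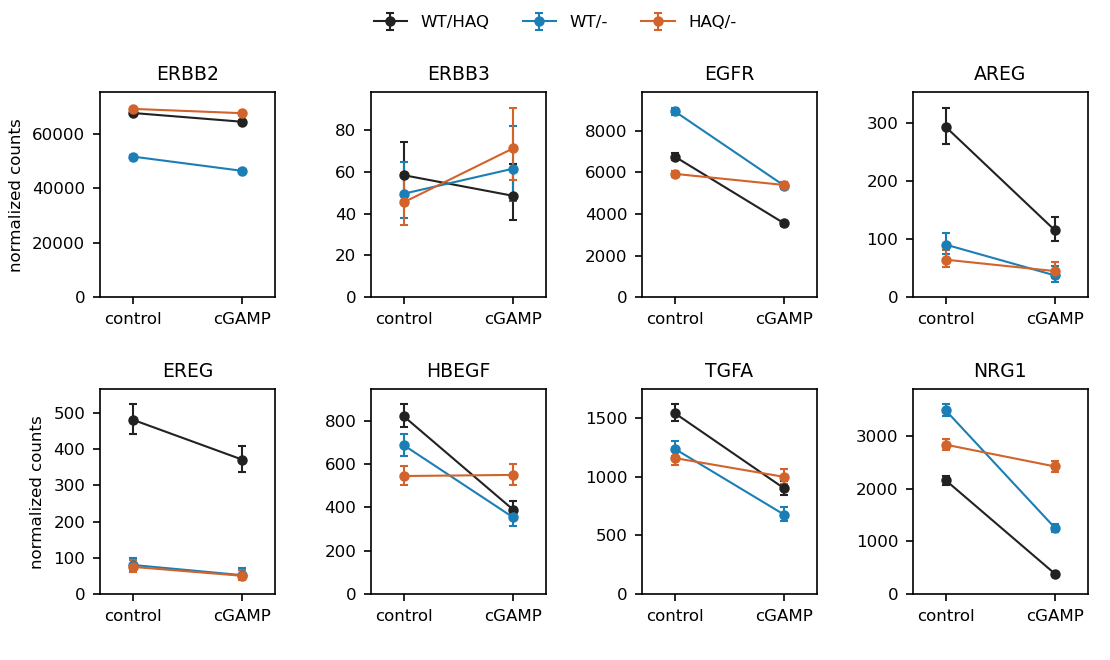
Normalized counts of each member in the 6 libraries on linear axes that start at 0; points are single libraries joined within a line, with 95% counting intervals. The lines of WT/HAQ and WT/- slope down for EGFR, AREG, HBEGF, TGFA and NRG1, while those of HAQ/- are flatter. The WT/HAQ points lie above those of the clones for AREG and EREG, with overlapping intervals for AREG between WT/HAQ with cGAMP and the WT/- control.

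Averaged over the 3 lines with the line as a block, edgeR called 0 of 8 members lower with cGAMP, where 0.959% of all genes were, and 0 higher, where 2.27% were. At an unadjusted p under 0.05 there were 6 of 8, all lower, beside 13.6% of all genes lower at that threshold, and DESeq2 called 3 lower (AREG, EGFR and TGFA), beside 3.85%. The log2 difference was -1.08 ± 0.21 for AREG (adjusted p = 0.066), -0.62 ± 0.14 for TGFA (0.081), -0.49 ± 0.12 for EREG (0.089), -0.60 ± 0.16 for EGFR (0.105), -1.38 ± 0.43 for NRG1 (0.131) and -0.67 ± 0.23 for HBEGF (0.153), each lower in all 3 lines except HBEGF, which was lower in 2 of 3. ERBB2 stood at -0.09 ± 0.06 (adjusted p = 0.42) and ERBB3 at 0.23 ± 0.25 (0.62). Without HAQ/-, or either of its libraries, 5 members passed (AREG, EGFR, HBEGF, NRG1 and TGFA, adjusted p down to 0.00048 for NRG1), all lower, while 8.68% of all genes were called lower without the line, 8.49% without its control and 8.47% without its cGAMP library. Without WT/HAQ or WT/- none passed, and without WT/- or either of its libraries 0 genes of the whole table did (2 or 3 members at an unadjusted p under 0.05, beside 12.3% to 12.5% of all genes), so the calls given here for genes outside the set are also lost there. The share of all genes called without WT/HAQ is not given here, so whether that result is particular to the members cannot be told. In a setting added after seeing the data, the response of HAQ/- was set against the mean response of the lines with a WT allele, with 1 residual degree of freedom. Here edgeR called 0 of 8 members, where 1.18% of all genes passed in either direction, with 4 of 8 at an unadjusted p under 0.05, beside 9.39% of all genes, and 0 by DESeq2, beside 1.02%. The difference in log2 response was 1.74 ± 0.35 for NRG1 (adjusted p = 0.069), 1.03 ± 0.19 for HBEGF (0.053), 0.70 ± 0.16 for EGFR (0.121), 0.61 ± 0.17 for TGFA (0.187) and -0.12 ± 0.34 for EREG (0.99). The other members had differences of 0.80 ± 0.39 (AREG), 0.63 ± 0.51 (ERBB3) and 0.08 ± 0.12 (ERBB2). A gap between HAQ/- and the lines with a WT allele was therefore not shown for any member at this threshold with the minimum mean of 10 counts. For EGFR, HBEGF and NRG1 the call depended on that minimum. The spread of HAQ/- was not measured, since the residual comes from the 2 other lines. For NRG1, the log2 fold changes of WT/- and WT/HAQ themselves differed by 1.02 (0.84 to 1.21, counting error only), near the 1.25 (1.12 to 1.38) between HAQ/- and WT/-.

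**Figure D4:**
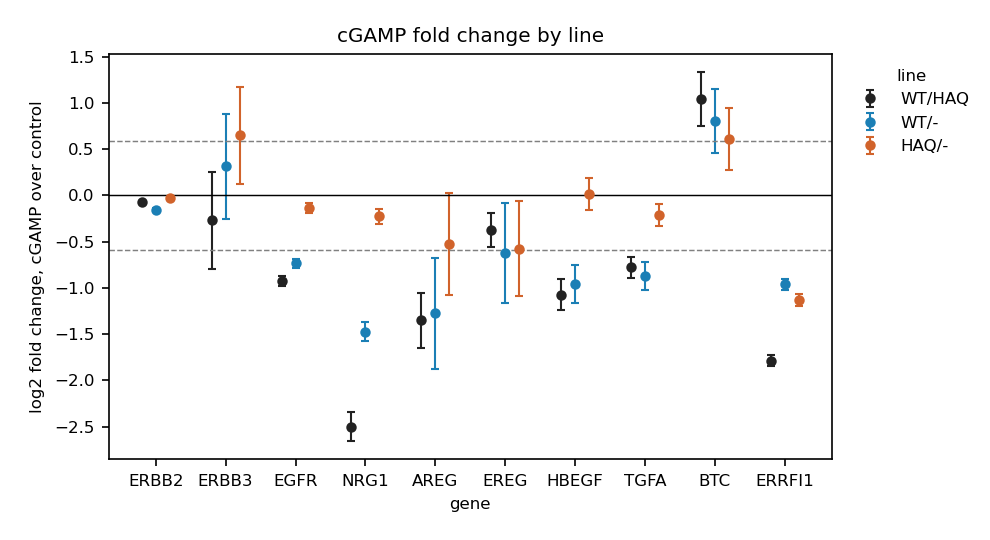
Log2 fold change of cGAMP over control in each line for the 8 members, BTC and ERRFI1, with 95% counting intervals; dashed lines mark 1.5-fold in either direction. EGFR, NRG1, HBEGF and TGFA lie below the lower dashed line in WT/HAQ and WT/- and near 0 in HAQ/-, and BTC lies above 0 in all 3 lines.

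Of the 7 other genes of the family, 3 passed the minimum of counts. BTC, a further ligand of EGFR and ERBB4, rose with cGAMP, with 127 and 261 normalized counts for WT/HAQ, 114 and 199 for WT/-, and 113 and 172 for HAQ/- (log2 difference 0.82 by edgeR, adjusted p = 0.046). It went the opposite way to AREG and EREG, its neighbours on chromosome 4, in all 3 lines. ERBB4, the receptor for NRG1 besides ERBB3, had 394, 131 and 387 normalized counts in the WT/HAQ, WT/- and HAQ/- controls and 377, 132 and 409 with cGAMP. It was lower in WT/- than in WT/HAQ (log2 difference -1.55, adjusted p = 0.0060) and than in HAQ/- (-1.60, adjusted p = 0.0028). ERBB4 and ERBB2 were thus both lowest in WT/-, and ERBB4 showed no call with cGAMP (0.01, adjusted p = 0.96). NRG4 stood between 8.40 and 14.2 normalized counts, EGF between 1.74 and 16.0, EPGN between 0 and 5.60, and NRG3 was at 0 in all libraries. NRG2 had 6.19 normalized counts in the WT/HAQ control and 40.9 with cGAMP, against at most 6.68 in the other lines, and was under the minimum for testing.

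The genes that release the ligands and relay the signal were read against the 0.959% of all genes called lower and 2.27% called higher with cGAMP, shares at which lists of this size would hold few calls or none. At an unadjusted p under 0.05, 13.6% of all genes were lower, and DESeq2 called 3.85% lower. Of 5 shedding genes, edgeR called 0 (2 at an unadjusted p under 0.05, 1 by DESeq2), with ADAM17 between 945 and 1698 normalized counts and log2 fold changes of -0.03, 0.00 and -0.02. The 2 with the largest median fold change were RHBDF2, a partner of ADAM17 (0.87, 0.68 and 0.37 in WT/HAQ, WT/- and HAQ/-), and TIMP3, a metalloprotease inhibitor with few counts (0.78, 0.65 and -1.48). Of 21 genes of the signal relay, from GRB2 and SOS1 to ERK and AKT, edgeR called 0 (6 at an unadjusted p under 0.05, 1 by DESeq2), and their median log2 fold change was 0.03, -0.05 and -0.00 in the 3 lines. Within it PIK3R1, a regulatory subunit of PI3K, had log2 fold changes of 1.69, 1.43 and 0.12, and PIK3CA, its catalytic partner, of 0.51, 0.37 and 0.27. Of the 14 analysed neighbours of ERBB2, edgeR called 0 with cGAMP (3 at an unadjusted p under 0.05, 0 by DESeq2), and the 2 with the largest median were TCAP (-0.11, -0.37 and -0.70) and GRB7 (-0.73, -0.28 and -0.28).

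Among 11 negative regulators 1 fell, beside 0.959% of all genes, and 0 rose. ERRFI1, a feedback inhibitor that binds EGFR and ERBB2, fell with cGAMP, with 10191 and 2958 normalized counts for WT/HAQ, 8841 and 4540 for WT/-, and 6398 and 2925 for HAQ/- (log2 difference -1.29, adjusted p = 0.030). Among 15 genes of ERK output 3 fell and 0 rose, beside 0.959% of all genes that were lower and 2.27% that were higher. These were FOSL1, a partner of JUN in AP-1 (log2 difference -1.35, adjusted p = 0.018), IER3 (-1.18, adjusted p = 0.027) and EPHA2, an ephrin receptor (-0.66, adjusted p = 0.031). Of 12 immediate-early genes, which overlap the ERK output list in part, 4 fell and 0 rose against the same shares, namely FOSB (-1.64, adjusted p = 0.0076), EGR2 (-1.75, adjusted p = 0.010), NR4A1 (-1.08, adjusted p = 0.014) and IER3. The median log2 fold change of the immediate-early genes was -0.97, -0.31 and -0.93 in the order WT/HAQ, WT/- and HAQ/-, with 8, 5 and 8 of 12 lowered at least 1.5-fold, beside 12.3%, 8.77% and 5.76% of all genes. In the same order the median was -0.46, -0.30 and -0.35 for the ERK output genes and -0.85, -0.80 and -0.18 for the members. Immediate-early genes are known to respond quickly to growth factors and to stress. The part of either list in the results for the members was not tested. Of 9 analysed genes around AREG and EREG, 4 fell with cGAMP (log2 differences of -2.13 for CXCL8, -1.96 for CXCL3, -1.87 for CXCL2 and -1.64 for CXCL1, adjusted p = 0.046 to 0.049) and BTC rose, again beside 0.959% and 2.27%.

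**Figure D5:**
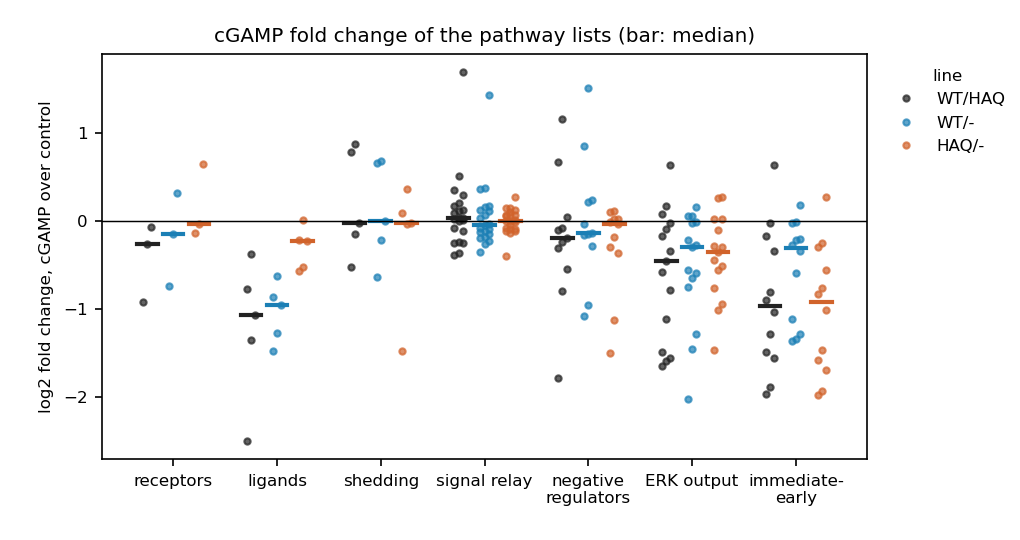
Log2 fold change of cGAMP over control for each analysed gene of the receptors, the ligands and 5 pathway lists, by line; points are genes and bars are medians. The ligands lie low in WT/HAQ and WT/- and closer to 0 in HAQ/-, the signal relay is centred near 0 in all lines, and the immediate-early genes lie low in WT/HAQ and HAQ/-.

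Over the 6 libraries, 6 members varied by at least 1 on the log2 scale, from 1.19 for TGFA to 3.26 for EREG, while ERBB2 varied by 0.58 and ERBB3 by 0.65. The genes most like each of these 6 were sought among 2338 genes with a mean of at least 100 counts and a range of at least 1, by Pearson's r of log2 normalized counts over 6 libraries. The libraries share lines and treatments, so r is a description. NRG1 was most like HMGA2, a chromatin protein gene (r = 0.997), which had 3726 and 862 normalized counts in WT/HAQ without and with cGAMP, 5468 and 2685 for WT/-, and 4893 and 4130 for HAQ/-, and next like SH3TC2 (0.991) and ZMIZ1 (0.985). EGFR was most like BAIAP2L1 (0.994), MGLL (0.992) and FAM207A (0.991). HBEGF and TGFA shared TMEM120B as the most like gene (0.978 and 0.982), followed by PDE10A (0.972) and IL1RAP (0.963) for HBEGF and by EIF1AD (0.977) and ODC1, of polyamine synthesis (0.967), for TGFA. EREG was most like KRT19, an epithelial keratin (0.986), which had 5629 and 3605 normalized counts in WT/HAQ and 343 to 414 in the clones, then TSPYL5 (0.971) and PORCN (0.961). AREG was most like PORCN, which acylates WNT ligands (0.974), CHMP1B (0.940) and FAM83A (0.938). These genes were chosen for their likeness, so that their levels share the members' pattern by construction.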

How the data were processed

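Poly(A) RNA of 6 SKOV3 cultures was sequenced as paired 150-base reads. The authors deposited expected counts per gene, without normalization, and the submitters' processing notes name STAR, RSEM and GRCh38 (hg38). The annotation and the strand setting are not given in the sources used here. The values were rounded to whole counts, with no column left over and 0 rows without a gene. Libraries were grouped by the genotype and treatment in their labels. Members and gene lists were chosen with earlier results of these data known.

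Counts were scaled by TMM in edgeR 4.0.16 (R 4.3.3), and normalized counts refer to a common library size, the geometric mean of the TMM-scaled sizes. Genes averaging 10 or more counts were analysed. Within a line, a floor of 3 counts was used for folds, a fold of at least 1.5 was called raised or lowered, and intervals are 95% Wilson intervals on the counts, which cover counting error only. Across libraries, edgeR's quasi-likelihood test with line and treatment as terms was used, with Benjamini-Hochberg adjustment over 15126 genes and a threshold of 0.05. DESeq2 1.42.0 was an alternative. Other alternatives were other size factors, total counts, a floor of 10 counts, thinning to the smallest total, a mean count of at least 1 or 50, a fold of at least 1.2 or 2, no line block, another gene length, and each line or library left out. Folds and figures were made in Python 3.11.15 (pandas 2.3.3, numpy 2.4.6, matplotlib 3.10.9, scipy 1.17.1), and the steps were tested on simulated data.

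Genes named are the 8 members, the other family genes, and from each list those called by edgeR with cGAMP, else the 2 with the largest median fold change, with the control level of each chromosome 17 neighbour, the 3 genes most like each varying member, and STING1 and ISG15. STING1 is listed as TMEM173. Genes named outside this rule were chosen after their values were seen, among them the markers and the genes named for a contrast of lines. Positions and lengths are from GENCODE release 44, which matched 56434 of 60498 identifiers, and promoter windows from RefSeq, for 6 of the 8 members. Exons of EGFR overlap those of EGFR-AS1, which had 2 to 18 counts.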

Additional observations from a re-analysis of the deposited data

Results flagged for a closer look

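SPRY2, a negative regulator of receptor tyrosine kinase signalling, had opposite log2 fold changes with cGAMP in the clones, 1.51 in WT/- (from 689 to 1961 normalized counts) and -1.50 in HAQ/- (from 760 to 268), and stood at -0.20 in WT/HAQ. The difference between the clones was not tested, and the difference of HAQ/- from the lines with a WT allele did not pass (-2.15, adjusted p = 0.18 by edgeR).

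The response of HAQ/- to cGAMP differed from the mean response of the lines with a WT allele, by edgeR's test of that difference, for 4 of 58 genes of the 5 pathway lists, against 1.18% of all genes, in a setting added after seeing the data. The spread of HAQ/- itself was not measured, since the 1 residual degree of freedom comes from the disagreement of WT/HAQ and WT/-. DUSP6, an ERK phosphatase, had a difference in log2 response of 1.46 (adjusted p = 0.019, and 0.00035 to 0.065 under 4 alternatives), with log2 fold changes of -1.59, -2.03 and -0.35 in WT/HAQ, WT/- and HAQ/-. PIK3R1 had a difference of -1.44 (adjusted p = 0.0098, alternatives 6.66e-05 to 0.032). EGR1 had a difference of -1.15 (adjusted p = 0.010, alternatives 3.61e-05 to 0.025) and FOS of -0.99 (adjusted p = 0.036, alternatives 0.0022 to 0.074), as both were lowered in HAQ/- (-1.46 and -1.02) and near their controls in WT/HAQ (-0.35 and -0.02) and WT/- (-0.28 and -0.02). With no further residual degree of freedom, no library could be left out.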

How the results depend on the processing

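The median log2 fold change of the members kept its sign and value within its spread in each line under other scaling, thinning and a floor of 10 counts, and 92 of 96 alternative fold changes of single members did so too. Members lowered by cGAMP numbered 3 in WT/HAQ and 2 in WT/- at a fold of at least 2. In HAQ/- they numbered 1 with total counts only, 1 after thinning and 2 at a fold of at least 1.2, and members raised numbered 0 in HAQ/- at a fold of at least 2 and 1 in WT/- at a fold of at least 1.2. Averaged over lines, 3 members were lower by DESeq2 and 1 with a mean count of at least 1, and 0 to 5 with a line or library left out. Between HAQ/- and WT/HAQ, 2 members differed by DESeq2, 2 with a mean count of at least 1, and 0 to 4 with a line or library left out. Leaving out a line or library gave 0 to 6 between WT/- and WT/HAQ and 0 to 4 between WT/- and HAQ/-. The response of HAQ/- differed for 3 members with a mean count of at least 1 and for 1 with at least 50. For these counts of members by fold, in the contrasts of lines and for the response of HAQ/-, the share of all genes is not given here. Whether the members stand out at these settings therefore cannot be told. The cause of these shifts was not tested. With cGAMP, edgeR called 344 genes higher and 145 lower, against 772 and 583 by DESeq2, 581 and 424 with a mean count of at least 1, 250 and 103 with at least 50, and 57 and 4 with no line block. The longest coding transcript as gene length moved 24 of 24 control levels and DESeq2 size factors 1 of 24. The block of the cGAMP test is the line, and the labels carry no replicate numbers that would give another. ERBB3, and AREG and EREG in the clones, rest on at most 97 counts a library, which limits their fold changes.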
